A study of Homo sapiens with 12 samples.

Results

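Aminoacyl-tRNA synthetases load each transfer RNA with its amino acid. They are described here as 36 genes, 20 for cytosolic and 16 for mitochondrial enzymes, chosen by gene name from the 58735 genes of the count table. All 36 were among the 14920 genes with enough counts to be tested. The cells were N/TERT-2G keratinocytes, an immortalised human skin line, and their polyadenylated RNA was sequenced in bulk. The 4 groups, with 3 libraries each, received ATF3 siRNA, APOE siRNA, CXCL14 siRNA or a negative control siRNA. In every group 100 pmol of siRNA and 5 µl of a lipid reagent were added per well of a 6-well plate, and the medium was changed after 6 h. All groups thus share 1 line and the same transfection, and none was left untransfected. The siRNA sequences and the time of harvest are not given in the sources used here. Nothing states that the 3 libraries of a group came from separate cultures, so p-values measure only the spread between these libraries, which may be technical.

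Cytosolic synthetases serve translation of nuclear messenger RNAs, and several of them sit together in a multisynthetase complex held by AIMP scaffold proteins. Mitochondrial synthetases are encoded by separate nuclear genes and charge the transfer RNAs used for the few proteins made inside mitochondria, though GARS and KARS supply both compartments from 1 gene each. When amino acids run short or other stresses slow translation, the transcription factor ATF4 is known to raise amino acid transporters, biosynthetic enzymes and many cytosolic synthetases. ATF3 is itself a stress-induced transcription factor of the same bZIP family, APOE is a lipid carrier and CXCL14 is a chemokine made by keratinocytes.

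Depth was 16225691 to 22246755 counts per library. The transcripts aimed at were lower with their own siRNA. ATF3 had 12.02, 12.54 and 11.49 CPM (counts scaled to a common library size) with ATF3 siRNA and 43.04, 43.05 and 40.47 CPM with control siRNA (log2 fold change -1.81 ± 0.08 SE). APOE had 2, 5 and 3 counts with APOE siRNA and 46, 59 and 51 with control siRNA. CXCL14 had 1, 1 and 0 counts with CXCL14 siRNA and 7, 6 and 11 with control siRNA, too few for a firm size. That last difference missed the threshold without CXCL14 siRNA library 3 (adjusted p = 0.0579) and without control library 3 (adjusted p = 0.0523). ATF3 itself was higher with CXCL14 siRNA than with control siRNA (0.70 ± 0.07), and CXCL14 was higher with APOE siRNA (4.11 ± 0.48). The keratinocyte label was checked against 10 markers, all detected, whose summed level was 33400 to 36600 CPM with ATF3 siRNA, 41600 to 43900 with APOE siRNA, 23200 to 24000 with CXCL14 siRNA and 33100 to 35700 with control siRNA. Summed markers of fibroblasts (14.6 to 87.9 CPM), melanocytes (2.96 to 6.65), immune cells (1.58 to 6.32) and endothelial cells (0.304 to 1.58) were low in every library, with TYR, PTPRC, CD3E and LYZ at 0 counts in all 12. These sums moved between the groups, and their part in the results was not tested. Most of the fibroblast sum was COL1A1, with group means of 15.24 to 80.39 CPM. Most of the immune sum was CD14, with group means of 1.191 to 5.894 CPM. In bulk RNA, fewer cells expressing a gene and less RNA per cell cannot be told apart.

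Promoter sequence was looked at because many synthetase genes are known ATF4 targets. RefSeq promoters (GRCh38.p14, 250 bases before to 50 after a start site) were found for 30 of the 36 genes, 16 cytosolic with 21 promoters and 14 mitochondrial with 18, since some genes have more than 1 start site. The composite element bound by ATF4 with a C/EBP partner, searched as TGATGNAA on both strands, was present in a promoter of 7 of the 16 cytosolic genes, of 1 of the 14 mitochondrial genes and of 4.46% of the 27305 genes in the RefSeq table. Per promoter, it was in 7 of 21 cytosolic and 1 of 18 mitochondrial promoters and in 3.62% of all 35116. The 8 matches are shown on the strand of the gene, 5′ to 3′, with the element in capitals, so that TTGCATCA is the same element read from the other strand. A ninth sequence shows a gamma-activated site (TTCNNNGAA) in the promoter of WARS, a gene known to respond to interferon gamma. A match is a description of these letters and not evidence of binding.
AARS, alanine, chr16:70289675-70289704, minus strand: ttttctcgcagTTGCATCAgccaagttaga
CARS, cysteine, chr11:3057407-3057436, minus strand: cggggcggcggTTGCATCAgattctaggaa
GARS, glycine, chr7:30594834-30594863, plus strand: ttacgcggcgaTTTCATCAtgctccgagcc
IARS, isoleucine, chr9:92293692-92293721, minus strand: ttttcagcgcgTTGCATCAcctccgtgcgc
MARS, methionine, chr12:57488053-57488082, plus strand: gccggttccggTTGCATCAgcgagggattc
NARS, asparagine, chr18:57621804-57621833, minus strand: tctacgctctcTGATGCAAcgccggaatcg
TARS, threonine, chr5:33440956-33440985, plus strand: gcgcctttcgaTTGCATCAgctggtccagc
YARS2, mitochondrial tyrosine enzyme, chr12:32756076-32756105, minus strand: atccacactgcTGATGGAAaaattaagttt
WARS, tryptophan, gamma-activated site, chr14:100375470-100375499, minus strand: gctcaagtgtTTCTGAGAAtctgggtgatt

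Relative to the start site at 0, the element began at -187 in AARS, -33 in GARS, -13 in IARS, -4 in MARS, -2 in CARS, 2 in TARS and 14 in NARS. The cytosolic matches thus lay close to the start site except that of AARS, which lay farther upstream, as did the YARS2 match at -197. The gamma-activated site was found in 3 cytosolic genes (CARS, TARS and WARS) and 2 mitochondrial ones, and in 9.38% of all genes with a promoter. Of its 2 matches in TARS, the one at -55 from the upstream start site overlapped a match to the ETS element CCGGAAGT. That ETS element was in 5 cytosolic and 3 mitochondrial genes (4.95% of all genes), and the NRF1 element was in 3 and 3 (6.98%). The cyclic AMP response element TGACGTCA and the AP-1 element TGANTCA, forms that ATF3 is known to bind, were in no promoter of the 30 genes (2.25% and 9.37% of all genes).

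Levels were compared between genes per gene length, as the deposited FPKM. Cytosolic synthetases were the more abundant class: with control siRNA their median was 32.1 FPKM (9.01 for CARS to 57.6 for GARS), against 7.58 FPKM for mitochondrial enzymes (0.572 for SARS2 to 25.7 for IARS2) and 4.12 FPKM for all tested genes. GARS (57.6 ± 2.63 FPKM, SD, n = 3) and SARS (53.4 ± 1.91) led the order with control siRNA, and the first 13 places were all cytosolic. Of the first 20 places 18 were cytosolic, the exceptions being IARS2 and YARS2, while HARS and CARS stood at places 24 and 27 among mitochondrial enzymes. The gene length counts all annotated exon bases, 7853 for HARS and 10037 for CARS, whichever transcripts are made. Its part in their low places was not tested. Of the 35 neighbouring pairs in this order, 11 did not overlap in their control libraries, so most neighbours did not differ beyond their spread. SARS2 had the fewest counts, 46.2% of its exon bases are shared with another gene on the same strand, and its values are uncertain.

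**Figure D1:**
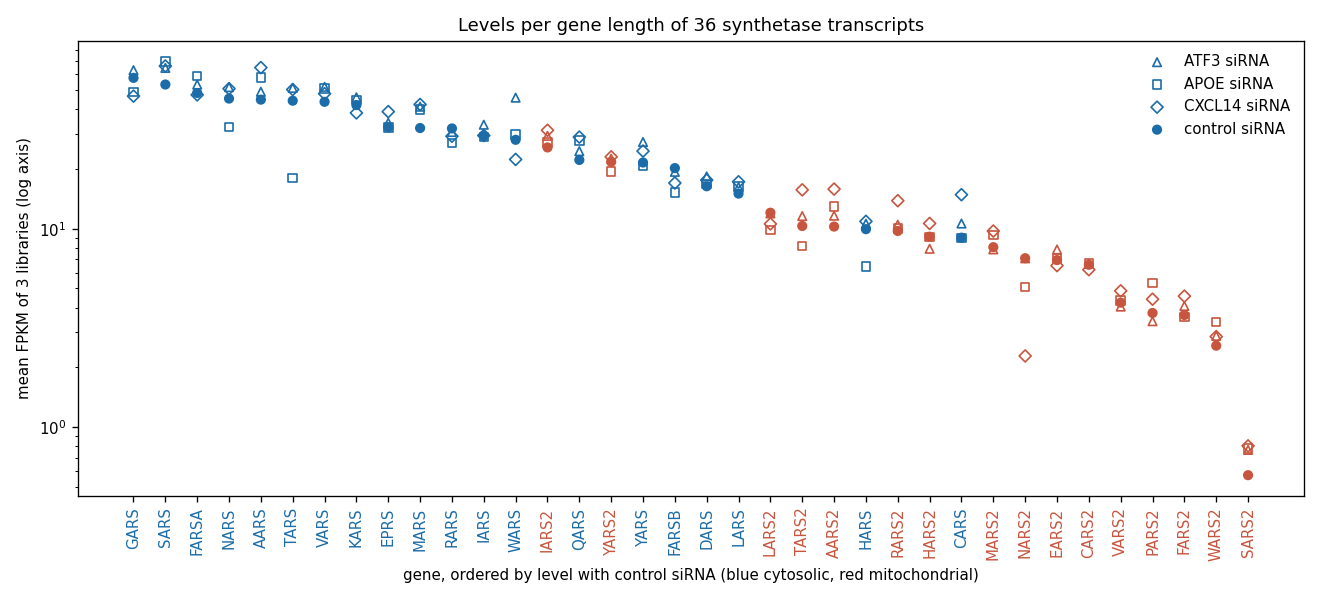
Mean FPKM of 3 libraries (log axis) for each of the 36 genes in the 4 siRNA groups, ordered by the level with control siRNA, with cytosolic enzymes in blue and mitochondrial ones in red. Cytosolic enzymes fill the left, at 9.01 to 57.6 FPKM with control siRNA, and the open symbols that stand away from the rest are TARS with APOE siRNA (18.0 FPKM) and NARS2 with CXCL14 siRNA (2.28 FPKM).

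Summed over the cytosolic class, the level was 743.5 ± 18.5 FPKM with ATF3 siRNA, 652.4 ± 15.9 with APOE siRNA, 705.9 ± 15.6 with CXCL14 siRNA and 647.8 ± 7.66 with control siRNA (SD, n = 3 each). The mitochondrial sum was 150.1 ± 1.21, 142.3 ± 1.42, 163.2 ± 2.88 and 142.4 ± 2.70 FPKM in the same groups. The ratio of the cytosolic to the mitochondrial sum was 4.88 to 5.05 with ATF3 siRNA, 4.53 to 4.66 with APOE siRNA, 4.30 to 4.35 with CXCL14 siRNA and 4.43 to 4.70 with control siRNA. It was therefore higher in every ATF3 siRNA library, and lower in every CXCL14 siRNA library, than in any control library, while the APOE siRNA libraries lay within the control range.

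With ATF3 siRNA, 9 of the 36 synthetase genes were called higher and 0 lower, under TMM scaling with all 12 libraries. The other 27 were not called, and 7 of the 36 log2 fold changes were below 0. Of the classes, 8 of 20 cytosolic genes were higher and 0 lower, against 1 of 16 mitochondrial genes higher and 0 lower, by edgeR's quasi-likelihood test with Benjamini-Hochberg adjustment over all genes. Over all tested genes 20.4% were called, 11.2% as higher and 9.14% as lower. The median log2 fold change was 0.16 for the cytosolic class, with 18 of 20 above 0, and 0.09 for the mitochondrial class, beside 0.00 over all genes. The cytosolic count was 5 without control library 2, and the mitochondrial count was 0 without ATF3 siRNA library 2 and 2, with 1 higher and 1 lower, without ATF3 siRNA library 1. With a term for the replicate number added to the model, the mitochondrial count was 4, and 27.7% of all tested genes were called. The cytosolic count was 5 to 11 over the alternatives that kept every library of the groups compared. Scaling by library size alone lowered the share of calls that were higher over all genes to 44.0%, against 55.2% with TMM scaling, and gave 0 mitochondrial genes higher and 1 lower.

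WARS, the tryptophan enzyme, showed the largest of these rises. It had 274.0, 299.7 and 316.8 CPM with ATF3 siRNA and 157.2, 185.3 and 200.1 CPM with control siRNA. Every ATF3 siRNA library was above every control library, and the log2 fold change was 0.71 ± 0.08 (adjusted p = 2.19e-05). YARS, the tyrosine enzyme, had 237.6, 222.0 and 227.3 CPM with ATF3 siRNA and 181.5, 177.7 and 178.8 CPM with control siRNA (0.35 ± 0.05, adjusted p = 0.000277). These groups did not overlap either, and the control libraries of YARS lay within a few CPM of each other.

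MARS charges the initiator and elongator transfer RNAs with methionine. It had 301.9, 283.9 and 300.2 CPM with ATF3 siRNA and 230.9, 220.2 and 236.3 CPM with control siRNA (0.37 ± 0.06, adjusted p = 0.000476). Its groups were apart. MARS shares 5.05% of its exon bases with DDIT3 on the opposite strand, and DDIT3 was also higher with ATF3 siRNA (0.95 ± 0.13). With APOE siRNA DDIT3 averaged 18.35 CPM, against 7.77 CPM with control siRNA, and MARS was at 0.33. With CXCL14 siRNA DDIT3 was at 0.02 ± 0.13 and MARS at 0.39. MARS also shares 7.38% of its exon bases with ARHGAP9 on the opposite strand. The part of DDIT3 or ARHGAP9 reads in the MARS values was not tested. SARS, the serine enzyme, had 268.5, 247.0 and 243.2 CPM with ATF3 siRNA and 212.4, 198.5 and 211.2 CPM with control siRNA (0.29 ± 0.06, adjusted p = 0.00394). CARS, the cysteine enzyme, had 111.1, 106.4 and 108.3 CPM with ATF3 siRNA and 97.1, 91.5 and 86.1 CPM with control siRNA (0.25 ± 0.06, adjusted p = 0.00923). Both stood apart from the control libraries, but CARS missed the threshold without control library 3 (adjusted p = 0.0539). VARS (0.26), TARS (0.22) and IARS (0.19), for valine, threonine and isoleucine, completed the cytosolic rises.

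IARS2, for isoleucine in mitochondria, was the 1 mitochondrial gene called. It had 128.3, 128.1 and 117.9 CPM with ATF3 siRNA and 112.4, 105.4 and 107.3 CPM with control siRNA (0.20 ± 0.06, adjusted p = 0.0288). Its groups were apart by a few CPM, and the call was lost in several alternatives, with adjusted p up to 0.136. The members with the largest adjusted p were RARS, for arginine (-0.05, adjusted p = 0.682), and LARS2, for leucine in mitochondria (adjusted p = 0.985).

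**Figure D2:**
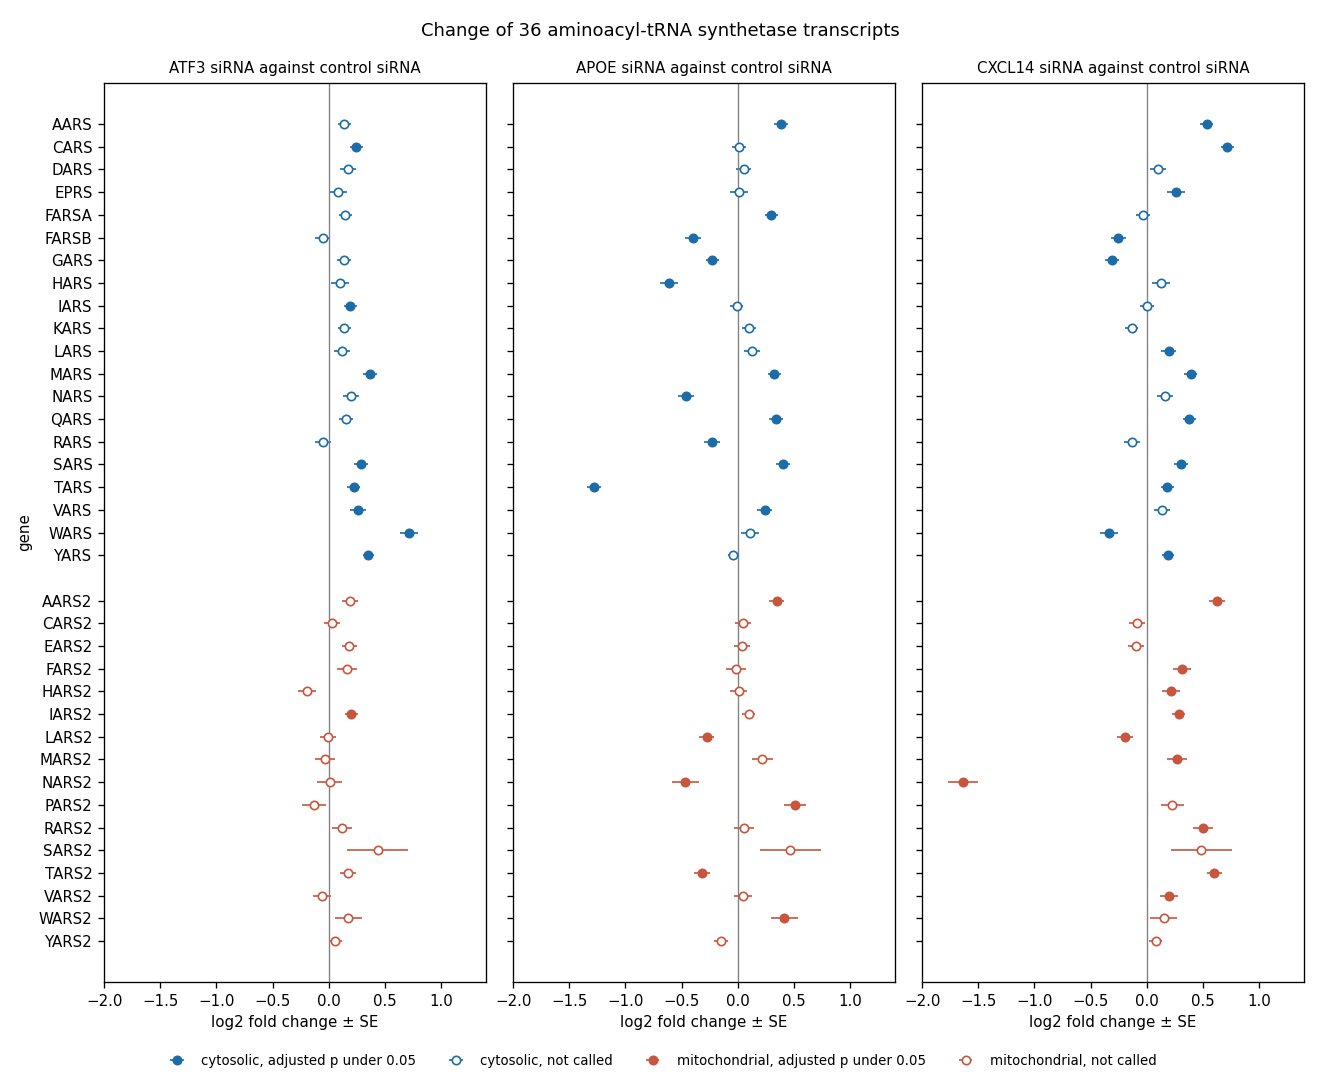
Log2 fold change with its SE for each of the 36 genes (cytosolic above mitochondrial) with ATF3, APOE and CXCL14 siRNA, each against control siRNA; filled points passed an adjusted p of 0.05. In the ATF3 panel the filled points all lie right of 0, the APOE panel is led by TARS at -1.28 and the CXCL14 panel by NARS2 at -1.64.

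With APOE siRNA synthetase genes were called in both directions, 60% of the cytosolic and 37.5% of the mitochondrial class. Of 20 cytosolic genes 6 were higher and 6 lower, and of 16 mitochondrial genes 3 were higher and 3 lower, while 44.8% of all tested genes were called (22.3% higher and 22.5% lower). The medians were 0.03 for cytosolic and 0.05 for mitochondrial genes, beside 0.01 over all genes.

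TARS, which charges threonine, fell most. It had 106.4, 99.4 and 110.4 CPM with APOE siRNA and 263.6, 256.7 and 247.8 CPM with control siRNA. The APOE siRNA libraries were at 41.2% of the control level, with no overlap (-1.28 ± 0.06, adjusted p = 3.20e-10). TARS was also at 280.7 to 312.0 CPM with ATF3 siRNA and 286.4 to 294.4 CPM with CXCL14 siRNA, so that all 3 APOE siRNA libraries were below all 9 others. HARS, which charges histidine, had 53.3, 49.5 and 52.6 CPM with APOE siRNA and 79.3, 83.2 and 74.9 CPM with control siRNA (-0.61 ± 0.08, adjusted p = 1.78e-05). NARS, which charges asparagine, had 138.8, 131.6 and 138.1 CPM with APOE siRNA and 205.2, 181.9 and 176.0 CPM with control siRNA (-0.46 ± 0.07, adjusted p = 6.54e-05). In both, every APOE siRNA library was below every control library. The other cytosolic falls were FARSB (-0.40), RARS (-0.23) and GARS (-0.22).

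Among the cytosolic rises, SARS had 279.3, 263.1 and 280.2 CPM with APOE siRNA and 212.4, 198.5 and 211.2 CPM with control siRNA (0.40 ± 0.06, adjusted p = 6.12e-05). AARS, which charges alanine, had 256.8, 263.2 and 278.9 CPM with APOE siRNA and 201.7, 206.0 and 204.3 CPM with control siRNA (0.38 ± 0.06, adjusted p = 0.000119). Both were apart from the control libraries. QARS (0.34), MARS (0.33), FARSA (0.30) and VARS (0.24), for glutamine, methionine, phenylalanine and valine, also rose. FARSA and FARSB encode the 2 subunits of a single phenylalanine enzyme, and they were called in opposite directions. FARSA averaged 146.9 ± 3.38 CPM with APOE siRNA and 119.3 ± 9.03 CPM with control siRNA, and FARSB averaged 52.5 ± 4.35 and 69.0 ± 1.49 CPM in the same order.

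In the mitochondrial class, PARS2, which charges proline, had 11.9, 12.4 and 14.0 CPM with APOE siRNA and 8.89, 8.82 and 9.11 CPM with control siRNA (0.51 ± 0.10, adjusted p = 0.000667). AARS2, the mitochondrial alanine enzyme, had 56.0, 57.2 and 57.2 CPM with APOE siRNA and 41.3, 48.8 and 43.8 CPM with control siRNA (0.35 ± 0.07, adjusted p = 0.00121). Both were higher in every APOE siRNA library. TARS2, the mitochondrial threonine enzyme, had 34.8, 34.2 and 33.6 CPM with APOE siRNA and 39.5, 42.3 and 46.1 CPM with control siRNA (-0.32 ± 0.07, adjusted p = 0.00164). It was lower in every APOE siRNA library. WARS2 (0.42) also rose, and NARS2 (-0.47) and LARS2 (-0.28) fell. IARS (-0.01, adjusted p = 0.911) and HARS2 (0.01, adjusted p = 0.947) had the largest adjusted p of their classes.

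With CXCL14 siRNA most called synthetases rose in both classes, and 1 mitochondrial gene fell by far the most. Of 20 cytosolic genes 9 were higher and 3 lower, and of 16 mitochondrial genes 8 were higher and 2 lower, while 55.8% of all tested genes were called (27.4% higher and 28.4% lower). The medians were 0.15 for cytosolic and 0.22 for mitochondrial genes, beside 0.01 over all genes.

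NARS2, which charges asparagine in mitochondria, had 8.23, 6.10 and 7.51 CPM with CXCL14 siRNA and 19.7, 23.2 and 25.2 CPM with control siRNA. The groups were far apart, and the CXCL14 siRNA level was 32.2% of control (-1.64 ± 0.13, adjusted p = 1.54e-08). NARS2 was at 21.7 to 23.8 CPM with ATF3 siRNA and 14.3 to 17.6 CPM with APOE siRNA, so that all 3 CXCL14 siRNA libraries were below all 9 others. TARS2 had 62.4, 63.6 and 68.3 CPM with CXCL14 siRNA and 39.5, 42.3 and 46.1 CPM with control siRNA (0.60 ± 0.07, adjusted p = 1.45e-06). AARS2 had 67.4, 69.5 and 69.8 CPM with CXCL14 siRNA and 41.3, 48.8 and 43.8 CPM with control siRNA (0.63 ± 0.07, adjusted p = 2.16e-06). Neither gene's groups overlapped. RARS2 (0.51), FARS2 (0.32), IARS2 (0.29), MARS2 (0.27), HARS2 (0.22) and VARS2 (0.20) also rose, and LARS2 (-0.19) fell. VARS2 shares 22% of its exon bases with GTF2H4 on the same strand, and its value is uncertain.

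CARS led the cytosolic rises. It had 146.6, 148.0 and 157.4 CPM with CXCL14 siRNA and 97.1, 91.5 and 86.1 CPM with control siRNA (0.72 ± 0.06, adjusted p = 4.48e-08). AARS had 281.2, 301.1 and 304.1 CPM with CXCL14 siRNA and 201.7, 206.0 and 204.3 CPM with control siRNA (0.53 ± 0.06, adjusted p = 2.28e-06). Both were well above the control range. MARS had 283.8, 306.9 and 311.7 CPM with CXCL14 siRNA and 230.9, 220.2 and 236.3 CPM with control siRNA (0.39 ± 0.06, adjusted p = 3.62e-05). QARS had 133.5, 136.6 and 143.9 CPM with CXCL14 siRNA and 105.5, 108.0 and 104.4 CPM with control siRNA (0.38 ± 0.06, adjusted p = 5.63e-05). SARS had 248.7, 251.4 and 269.8 CPM with CXCL14 siRNA and 212.4, 198.5 and 211.2 CPM with control siRNA (0.31 ± 0.06, adjusted p = 0.000479). In each of these the groups were apart. EPRS (0.26), LARS (0.20), TARS (0.19) and YARS (0.19) rose less, and WARS (-0.33), GARS (-0.31) and FARSB (-0.25) fell. IARS (0.00, adjusted p = 0.981) and CARS2 (-0.08, adjusted p = 0.326) had the largest adjusted p of their classes.

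**Figure D3:**
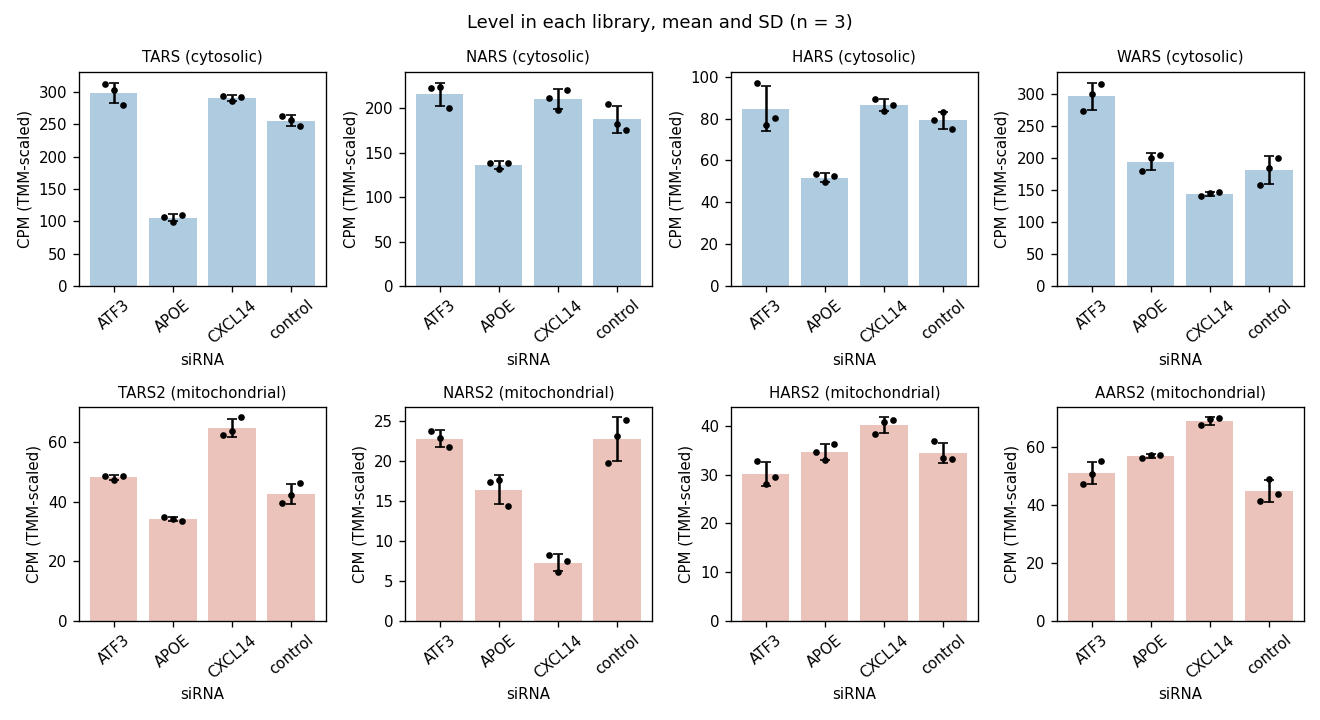
CPM in each library (points), with the group mean (bar) and SD (whisker, n = 3), for 4 cytosolic genes in blue and 4 mitochondrial genes in red; groups are ATF3, APOE, CXCL14 and control siRNA from left to right. TARS is low with APOE siRNA (99.4 to 110.4 CPM), NARS2 with CXCL14 siRNA (6.10 to 8.23 CPM), and WARS is high with ATF3 siRNA (274.0 to 316.8 CPM).

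The 3 comparisons share their control libraries, so calls that recur are not independent of each other. MARS and SARS were called higher in all 3. TARS was also called in all 3, lower with APOE siRNA and higher with the others. WARS was higher with ATF3 siRNA and lower with CXCL14 siRNA, and TARS2 was lower with APOE siRNA and higher with CXCL14 siRNA. DARS and KARS, for aspartate and lysine, and CARS2, EARS2, SARS2 and YARS2 were called in none.

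Each of 17 pairs joins a cytosolic and a mitochondrial gene for the same amino acid. With ATF3 siRNA both genes were called in 1 pair, for isoleucine, in the same direction. With APOE siRNA both were called in 3 pairs, all in the same direction: alanine higher, and asparagine and threonine lower. With CXCL14 siRNA both were called in 5 pairs, of which alanine, methionine and threonine were higher in both compartments, while leucine was higher in the cytosolic and lower in the mitochondrial gene and phenylalanine (FARSB and FARS2) the reverse. The asparagine pair was not called together with CXCL14 siRNA, since NARS was at 0.16 (adjusted p = 0.0603) and NARS2 at -1.64. HARS and HARS2 lie head to head on chromosome 5 with start sites 85 bases apart, and share 11.7% of the exon bases of HARS2 on opposite strands. HARS fell by 0.61 with APOE siRNA while HARS2 had 34.8, 33.0 and 36.4 CPM with APOE siRNA and 36.9, 33.4 and 33.2 CPM with control siRNA. The HARS2 libraries overlapped between the groups.

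**Figure D4:**
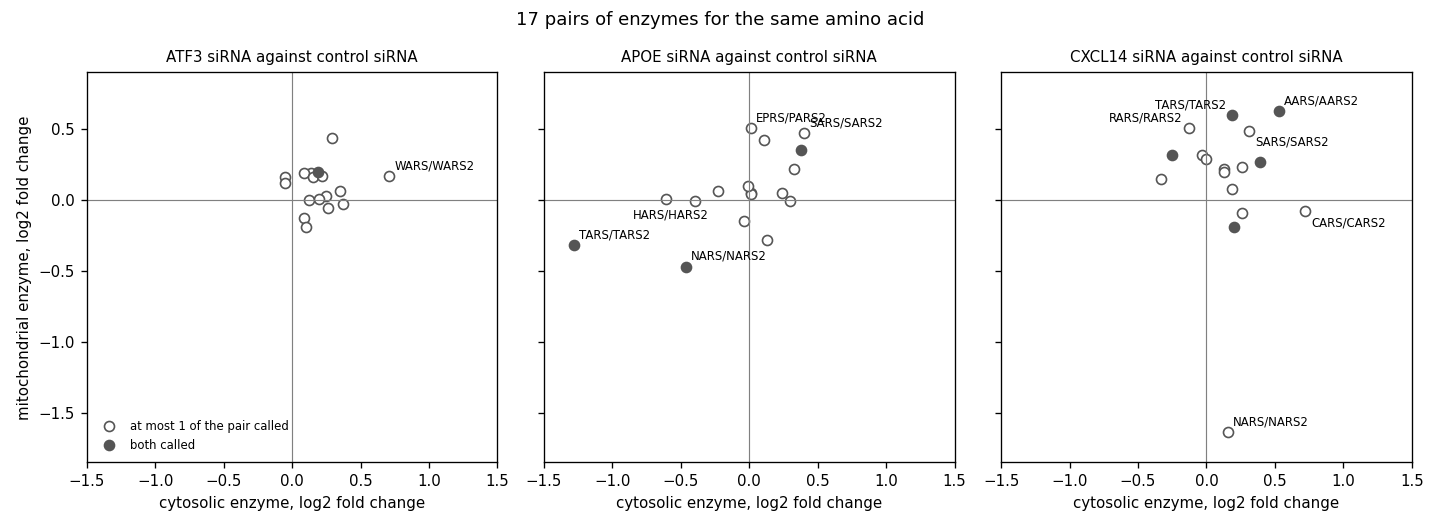
Log2 fold change against control siRNA of the mitochondrial gene (vertical) and the cytosolic gene (horizontal) in 17 pairs for the same amino acid, for ATF3, APOE and CXCL14 siRNA; filled points are pairs in which both genes were called. The threonine pair is at -1.28 (TARS) and -0.32 (TARS2) with APOE siRNA, and the asparagine pair at 0.16 (NARS) and -1.64 (NARS2) with CXCL14 siRNA.

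The 8 cytosolic enzymes of the multisynthetase complex (DARS, EPRS, IARS, KARS, LARS, MARS, QARS and RARS) had log2 fold changes of -0.23 to 0.39 over the 3 comparisons. Of these 8, 2 were higher and 0 lower with ATF3 siRNA, 2 higher and 1 lower with APOE siRNA, and 4 higher and 0 lower with CXCL14 siRNA. Of the 12 cytosolic genes outside the complex, 6 were higher and 0 lower, 4 higher and 5 lower, and 5 higher and 3 lower in the same comparisons, with a range of -1.28 to 0.72. In percent, 25, 37.5 and 50 of the complex genes and 50, 75 and 66.7 of the others were called, beside 20.4, 44.8 and 55.8 of all genes. Synthetases also fall into structural classes I and II, and EPRS, which holds both, was left out. With APOE siRNA 4 of 18 class I genes were higher and 2 lower, and 5 of 17 class II genes were higher and 7 lower. With ATF3 siRNA 7 class I and 2 class II genes were higher and 0 lower. With CXCL14 siRNA 9 class I genes were higher and 2 lower, and 7 class II genes were higher and 3 lower. With ATF3, APOE and CXCL14 siRNA the called share was 38.9%, 33.3% and 61.1% of class I and 11.8%, 70.6% and 58.8% of class II genes.

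The siRNAs were also compared with each other. For ATF3 siRNA against APOE siRNA, 9 cytosolic genes were higher and 2 lower, and 4 mitochondrial genes were higher and 2 lower, with 38.2% of all genes called (20.3% higher and 17.9% lower). TARS led, at 312.0, 303.3 and 280.7 CPM with ATF3 siRNA and 106.4, 99.4 and 110.4 CPM with APOE siRNA (1.5 ± 0.06, adjusted p = 1.24e-10). HARS had 97.2, 76.9 and 80.4 CPM with ATF3 siRNA and 53.3, 49.5 and 52.6 CPM with APOE siRNA (0.71 ± 0.08, adjusted p = 4.45e-06). The 2 groups did not overlap in either gene, nor in NARS, with 222.8, 224.0 and 200.1 CPM with ATF3 siRNA and 138.8, 131.6 and 138.1 CPM with APOE siRNA (0.66 ± 0.07, adjusted p = 2.06e-06).

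For ATF3 siRNA against CXCL14 siRNA, 7 cytosolic genes were higher and 3 lower, and 3 mitochondrial genes were higher and 7 lower, with 53.7% of all genes called (28.4% higher and 25.3% lower). Scaling by library size alone turned the cytosolic counts to 3 higher and 6 lower and the mitochondrial ones to 2 and 9, and took the share of all calls that were higher to 41.5% from 52.9%. NARS2 had 23.8, 22.9 and 21.7 CPM with ATF3 siRNA and 8.23, 6.10 and 7.51 CPM with CXCL14 siRNA (1.64 ± 0.12, adjusted p = 1.55e-08). WARS had 274.0, 299.7 and 316.8 CPM with ATF3 siRNA and 140.2, 144.8 and 146.3 CPM with CXCL14 siRNA (1.05 ± 0.08, adjusted p = 3.13e-08). Both were higher in every ATF3 siRNA library. CARS had 111.1, 106.4 and 108.3 CPM with ATF3 siRNA and 146.6, 148.0 and 157.4 CPM with CXCL14 siRNA (-0.47 ± 0.06, adjusted p = 5.43e-06), and was lower in every one.

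For APOE siRNA against CXCL14 siRNA, 3 cytosolic genes were higher and 6 lower, and 2 mitochondrial genes were higher and 7 lower, with 55.5% of all genes called (28.9% higher and 26.6% lower). Library size alone gave 2 cytosolic genes higher and 12 lower, with 39.6% against 52.0% of all calls higher. TARS had 106.4, 99.4 and 110.4 CPM with APOE siRNA and 294.4, 286.4 and 292.5 CPM with CXCL14 siRNA (-1.47 ± 0.06, adjusted p = 2.12e-11). TARS2 had 34.8, 34.2 and 33.6 CPM with APOE siRNA and 62.4, 63.6 and 68.3 CPM with CXCL14 siRNA (-0.92 ± 0.07, adjusted p = 1.15e-08). Both threonine enzymes were lower in every APOE siRNA library. CARS had 93.1, 92.0 and 92.2 CPM with APOE siRNA and 146.6, 148.0 and 157.4 CPM with CXCL14 siRNA (-0.70 ± 0.06, adjusted p = 5.28e-08), with no overlap.

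The promoter element was set beside these changes for the 16 cytosolic genes with a promoter. Of the 7 with the ATF4 element shown above, 4 were higher and 0 lower with ATF3 siRNA (median 0.20), 2 higher and 3 lower with APOE siRNA (median -0.01), and 4 higher and 1 lower with CXCL14 siRNA (median 0.19). Of the 9 without it, 2 were higher and 0 lower (median 0.14), 3 higher and 3 lower (median 0.10), and 3 higher and 2 lower (median -0.03) in the same comparisons. Over all tested genes 20.4%, 44.8% and 55.8% were called in these comparisons. TARS and NARS, which fell with APOE siRNA, and AARS and MARS, which rose with it, all carry the element.

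The amino acid response list holds 31 ATF4 targets and regulators, all tested, none of them a synthetase. With ATF3 siRNA 19 were higher and 0 lower (median 0.36), and with APOE siRNA 21 were higher and 2 lower (median 0.43). With CXCL14 siRNA 17 were higher and 5 lower (median 0.21). The called share was 61.3%, 74.2% and 71% of the list with ATF3, APOE and CXCL14 siRNA. Over all tested genes it was 20.4%, 44.8% and 55.8%, with 11.2%, 22.3% and 27.4% called higher. NUPR1, a stress-induced chromatin protein, rose by 1.22 ± 0.11, 2.82 ± 0.10 and 3.09 ± 0.10 in that order, and PSPH, the last enzyme of serine synthesis, by 0.77 ± 0.07, 0.95 ± 0.07 and 1.01 ± 0.07. In the same order STC2, a secreted glycoprotein, rose by 1.26, 1.00 and 1.29 and PYCR1, of proline synthesis, by 0.83, 0.76 and 0.58. SESN2, an inhibitor of mTORC1 signalling, rose by 0.28, 1.3 and 0.64, SLC6A9, a glycine transporter, by 0.75, 1.11 and 0.45, and CHAC1, which degrades glutathione, by 0.54, 0.94 and 0.95 (SE 0.08 for each). All of these genes thus rose with each of the 3 siRNAs, which share the control libraries. Not every list gene rose: with CXCL14 siRNA SLC38A2 averaged 535.2 CPM and MTHFD2 91.19 CPM, against 778.5 and 129.9 CPM with control siRNA. With APOE siRNA the list rose in 21 genes while 6 cytosolic synthetases were higher and 6 lower.

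Partners of the synthetases were counted as 13 genes, for scaffolds and for enzymes that act on charged transfer RNA. With ATF3, APOE and CXCL14 siRNA 15.4%, 30.8% and 30.8% of them were called, beside 20.4%, 44.8% and 55.8% of all tested genes. With ATF3 siRNA 2 were higher and 0 lower, AIMP2 (a complex scaffold, 0.30 ± 0.10) and QRSL1 (a subunit of the mitochondrial glutaminyl-tRNA amidotransferase, 0.20 ± 0.07). That count was 0 without ATF3 siRNA library 1, control library 1 or control library 2. With APOE siRNA the scaffold AIMP1 (-0.37 ± 0.08) and the D-aminoacyl-tRNA deacylase DTD1 (-0.76 ± 0.10) fell, and the amidotransferase subunits GATC (0.38 ± 0.08) and QRSL1 (0.24 ± 0.07) rose. With CXCL14 siRNA SEPSECS, of selenocysteine synthesis, fell by 1.02 ± 0.12 on the log2 scale, while GATB (0.38 ± 0.07) and PSTK (0.59 ± 0.16) rose.

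Since WARS is known to respond to interferon gamma, 15 genes of that response were counted, 13 of them tested. The called share of these 13 was 30.8%, 61.5% and 53.8% with ATF3, APOE and CXCL14 siRNA. Over all tested genes it was 20.4%, 44.8% and 55.8%. With ATF3 siRNA 4 were higher and 0 lower (median 0.21): CXCL10 (1.33 ± 0.17), CXCL11 (0.89 ± 0.21), GBP1 (0.74 ± 0.09) and TAP1 (0.32 ± 0.11), whose libraries overlapped with those of the control. With APOE siRNA 0 were higher and 8 lower (median -0.50), among them CXCL11 (-1.67 ± 0.24), CXCL10 (-1.24 ± 0.20), PSMB9 (-0.97 ± 0.14) and GBP3 (-0.91 ± 0.07), while WARS was at 0.11 ± 0.08 and was not called. With CXCL14 siRNA 2 were higher and 5 lower (median -0.22). There GBP1 rose by 1.2 ± 0.09, IRF1 (-0.72 ± 0.09), CXCL10 (-1.37 ± 0.20) and CXCL11 (-1.82 ± 0.24) fell, and WARS was at -0.33.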

How the data were processed

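Raw counts for each gene were deposited by the authors, with FPKM for each gene and library and, in another deposited table, the mean FPKM of each group. Per the submitters' processing notes the tools were HISAT2 2.0.5 and featureCounts 1.5.0-p3, with hg38 as the build. The annotation and the strand setting of the counting are not given in the sources used here, and the labels' protocols name both directional and non-directional libraries. Overlap on the opposite strand is therefore a source of doubt, and 17 of the 36 genes share exon bases in this way by GENCODE release 29. All 12 library columns were mapped to samples, and 0 were left out.

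The filter filterByExpr kept 14920 genes (99.9% of counts). The edgeR 4.0.16 model (R 4.3.3) used TMM scaling, all 12 libraries and a term for each group, with quasi-likelihood tests (glmQLFit, glmQLFTest). Benjamini-Hochberg adjustment covered all tested genes of a comparison, and an adjusted p below 0.05 was a call, whatever the fold. CPM are counts over the TMM-scaled library size, and each SE is the log2 fold change divided by the root of F. The procedure was tested on simulated data.

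Values in every library are given for up to 5 cytosolic and 3 mitochondrial called genes with the smallest adjusted p in each comparison with the control, and for up to 3 in each direct comparison. Of each list up to 4 called genes are named, and some list genes are counted but not reported singly here. DDIT3, SLC38A2, MTHFD2, the list genes' values in comparisons beyond that rule, and the values of HARS2, FARSA and FARSB were added after they had been seen. The members and lists were chosen with earlier results of these data known, so no test over a list was made. RefSeq promoters were matched through gene identifiers. Alternatives were the size factors of DESeq2, scaling by library size alone, omitting the filter, a stricter filter, limma-voom (limma 3.58.1), the Wald test of DESeq2 1.42.0, only the 2 groups compared, a replicate block, and leaving out each library in turn.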

Additional observations from a re-analysis of the deposited data

How the results depend on the processing

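Of 31 results for single synthetases, 29 kept their direction and their call under every alternative run. The exceptions, both with ATF3 siRNA, were CARS, at 0.19 without control library 3, and IARS2, at 0.16 to 0.24 with adjusted p of 0.0109 to 0.136 over all alternatives. With ATF3 siRNA the count of called cytosolic genes, 8, was 5 with only the 2 groups compared. It was 5 to 11 over all alternatives that kept every library of the groups compared, and 5 to 9 with 1 library left out. The mitochondrial count, 1, was 0 with no filter, 0 with only the 2 groups compared, 4 with the replicate block and 0 to 2 with 1 library left out. For APOE against CXCL14 siRNA the cytosolic count, 9, was 14 with library size alone and 9 to 11 with 1 library left out. The cytosolic minus the mitochondrial median log2 fold change was 0.08 with ATF3 siRNA, -0.08 with CXCL14 siRNA and -0.01 with APOE siRNA, the last ranging from -0.04 to 0.02 with 1 library left out. The fall of CXCL14 with its own siRNA, -3.61, was -3.25 by limma-voom (adjusted p = 0.0538) and -3.99 to -3.03 with 1 library left out, a fitted size that rests on 0 or 1 count per library. The causes were not tested, except that no filter raised the number of genes tested to 30352. Library size alone moved the median of all genes by up to -0.11 (APOE against CXCL14 siRNA). Replicate numbers were not taken as pairing the libraries, and the labels state no pairing. The data did hint at one, since 11 of 12 libraries correlated best with their own number. Over the 18 same-numbered pairs the correlation of deviations was -0.0208 to 0.234, and it was over 0.1 in 11. With the replicate block 4138 genes were called with ATF3 siRNA, against 3041 without it, and the interferon gamma list had 7 called, against 4. Very low counts limit CXCL14 and SARS2.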
